A study of Mus musculus with 2 samples.

Results

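Collagen chains are the subjects of this report: the 44 mouse genes whose symbol has the form Col, a number, a and a number. They were chosen by symbol alone, and 44 of 28001 listed genes in one library and 44 of 32286 in the other carry such a symbol. The study followed cells of the embryonic septum and of the whole telencephalon, and the data are 2 droplet libraries of 10x Genomics in which transcripts are counted by unique molecular identifiers (UMIs). The first library pooled septal explants of 8 E11.5 PGKCre;Rosa26YFP embryos from 2 litters with those of 4 E12.5 Dbx1Cre;Rosa26tdTomato embryos from 2 litters. PGKCre is driven by a general promoter, Dbx1Cre by a progenitor gene of restricted domains, and both leave a fluorescent reporter in the cells that used them. The second library pooled the telencephalic vesicles of 3 wild-type embryos from 2 litters, labelled E12 and given in the study as E11.5 to E12. Both carry the labels wild-type and C57BL/6J, and no embryo can be told from another inside a pool.

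Collagens are extracellular proteins built from 3 chains wound into a helix. Fibrillar collagens (Col1, Col2, Col3, Col5 and Col11 chains) form fibrils of connective tissue and cartilage, whereas Col4 chains form the network of basement membranes and Col18a1 and Col15a1 encode proteoglycans of those membranes. In the embryonic brain, the basement membrane lies at the pial surface under the endfeet of radial progenitors and around vessels, and meningeal fibroblasts, vessel cells and neuroepithelium are all known sources of its proteins.

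The septal library held 5384 kept cells with a median of 12868.5 UMIs (3907 to 84281), and the vesicle library 11758 cells with a median of 9058.5 (500 to 207131). A single barcode sequence occurred in both. With 1 library per tissue there were no replicates, so that no p-value was computed, intervals in parentheses are 95% counting intervals, and levels were never compared between the libraries, which differ in kit, age and tissue. A level is given as CPM, the gene's UMIs scaled to a fixed total of 1e+06 UMIs of the class, and a gene was called higher or lower at 2-fold or more when the compared cells held at least 20 of its UMIs. Collagen genes took no part in the clustering that gave the classes. Class names rest on marker genes and stand for cells like the named type, septal AP or neurons are those of the septal explants, and septal-like AP are the AP of either library with markers of the septal region. Mesenchyme-like cells (34 septal, 489 vesicle) had 16 of 16 fixed mesenchymal markers above the other cells in both libraries, and 28 endothelial-like cells of the vesicle had 12 of 12. These markers had named the clusters, and most were also among the genes used to reassign cells. The counts describe the classes and are no independent check of their names. The choroid-epithelium-like cluster rested on 5 of 8 markers in the septal explants, where Cldn2, Kl and Kcne2 were at 0, and on 6 of 8 in the vesicle, where Kl and Aqp1 were at 0. The septal mesenchyme-like cells came from 1 cluster shared with 10 macrophage-like cells and were separated from them cell by cell with non-collagen genes.

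Of the 44 collagens, 38 had a UMI in the septal explants and 23 had at least 50. Col10a1, Col19a1, Col28a1, Col4a3, Col6a5 and Col8a1 had none there. All 44 had a UMI in the vesicle and 37 had at least 50. Collagen UMIs numbered 13340 of 77620479 in the septal explants and 85176 of 174530220 in the vesicle.

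The share of collagen RNA held by connective tissue was large for its number of cells, yet most collagen UMIs lay in progenitors. Septal mesenchyme-like cells were 0.632% of the cells and held 18.6% of the collagen UMIs, at a summed level of 4768 CPM. Apical progenitors (AP), the dividing cells that line the ventricle, were 61.1% of the cells and held 62.9%, at 160 CPM. Neurons stood at 79.8 CPM and basal progenitors (BP), the intermediate dividing cells between AP and neurons, at 76.2 CPM. In the vesicle, BP stood above neurons. There, mesenchyme-like cells were 4.16% of the cells with 30.9% of the collagen UMIs and 3795 CPM, and endothelial-like cells were 0.238% with 2.42% and 2290 CPM. AP were 57.1% with 58.3% and 375 CPM, BP stood at 173 CPM, and neurons, 14.9% of the cells, held 1.77% at 110 CPM, or 168 CPM with doublets kept and 171 CPM with all barcodes kept. Of the UMIs of all genes, AP held 67.5% in the septal explants and 75.9% in the vesicle. Their shares of collagen UMIs were thus below their shares of all UMIs.

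**Figure D1:**
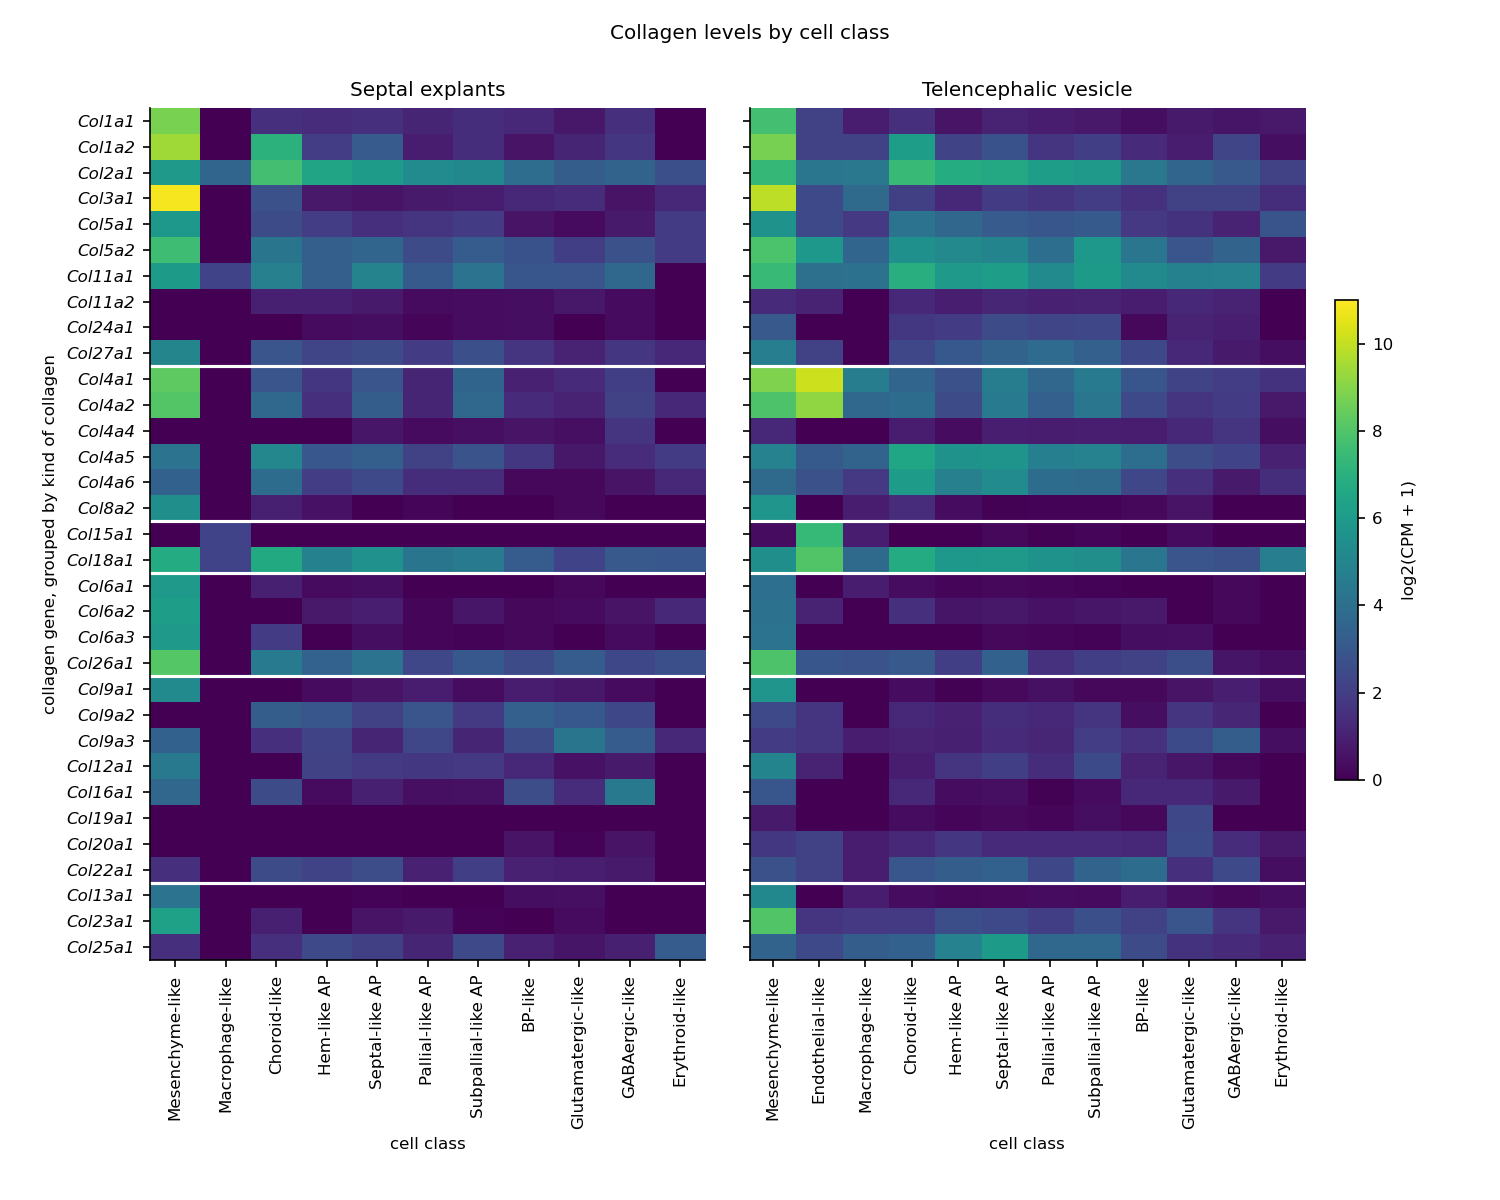
Level of the better counted collagen genes (rows, grouped by kind between white lines) in each cell class (columns), as log2(CPM + 1) on the colour scale, with 1 panel for each library. The mesenchyme-like column is the strongest for the Col1, Col3, Col6 and Col26 chains, the endothelial-like column for Col4a1, Col4a2, Col18a1 and Col15a1, and Col2a1, Col11a1 and Col18a1 are also seen in AP.

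Most collagens were higher in mesenchyme-like cells than in neural cells, meaning AP, BP and neurons together. In the vesicle, neural cells also included a cluster of 516 cells between AP and neurons. In the septal explants, 21 of 29 tested collagens were at least 2-fold higher, against 14.6% of all tested genes, and 1 was lower, against 11%. The vesicle had 27 of 41 higher, against 13.2%, and 0 lower, against 13.6%. The median log2 fold over the tested collagens was 4.93 and 2.93, beside 0.01 and -0.08 over all tested genes.

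The fibril chains of skin and bone led this group. Septal Col3a1 stood at 1831 CPM in mesenchyme-like and 0.945 CPM in neural cells, 1937-fold higher (1519 to 2506). In the vesicle the same gene stood at 951 and 2.51 CPM, 379-fold higher (342 to 421). Its usual fibril partner, type I collagen, is made of Col1a1 and Col1a2 chains. Septal Col1a1 was 298-fold higher (438 against 1.47 CPM, 236 to 378) and Col1a2 291-fold (692 against 2.38 CPM, 242 to 351). The vesicle had Col1a1 306-fold higher (210 against 0.687 CPM, 251 to 375) and Col1a2 140-fold (432 against 3.09 CPM, 127 to 154). Col3a1 was present in nearly every mesenchyme-like cell, with a UMI in 33 of 34 septal and 478 of 489 vesicle cells.

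Microfibril and membrane-linked chains followed the same division. Col6a1, Col6a2 and Col6a3, which together build the beaded microfibrils of type VI collagen, stood at 61.5, 69.2 and 59.6 CPM in septal mesenchyme-like cells and at 0.108, 0.527 and 0.108 CPM in septal neural cells. In the vesicle they stood at 15.2, 16.5 and 17.5 CPM against 0.102, 0.528 and 0.121 CPM. Col23a1, a transmembrane collagen, was 300-fold higher in the septal class (76.8 against 0.257 CPM, 170 to 548) and 56.3-fold in the vesicle (260 against 4.61 CPM, 51.7 to 61.5). Col26a1, a collagen with an EMI domain, was 33.7-fold (27.8 to 40.5) and 69.0-fold higher (62.6 to 76.1). Col8a2, a chain of short network collagens, and Col13a1, a transmembrane collagen, stood at 52.5 and 34.5 CPM in vesicle mesenchyme-like cells and at 0.153 and 0.274 CPM in vesicle neural cells.

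Other collagens differed less between mesenchyme-like and neural cells. Col5a2, which sits inside type I fibrils, was 28.8-fold higher in septal mesenchyme-like cells (188 against 6.55 CPM) and 7.66-fold in vesicle ones (233 against 30.4 CPM). Col2a1, the main fibril chain of cartilage, stood at 59.6 and 36.3 CPM in the septal classes (1.64-fold, 1.11 to 2.33, not called) and at 157 and 63.7 CPM in the vesicle classes (2.47-fold, 2.31 to 2.62). Col11a1, its fibril partner, was 4.72-fold (63.4 against 13.4 CPM) and 3.29-fold higher (169 against 51.4 CPM). Col18a1 was 5.36-fold higher in the septal class (108 against 20.1 CPM, 4.03 to 6.99) but stood at 43.3 and 42.0 CPM in the vesicle classes (1.03-fold, 0.916 to 1.16). Col25a1, a transmembrane collagen, had 1 UMI in septal mesenchyme-like cells and 373 in neural cells (2.62-fold lower, 0.468 to 104). The vesicle held 72 Col25a1 UMIs in mesenchyme-like and 3125 in neural cells, 10.4 against 19.9 CPM.

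Mural markers, which belong to pericytes and vessel smooth muscle, were also raised in the mesenchyme-like cells: 9 of 10 in the septal explants and 8 of 10 in the vesicle, with Higd1b at 0 in both. Their summed level was 471 CPM against 17.6 CPM in the other septal cells, and 394 against 69.0 CPM in the vesicle. Their part in the Col4 levels was not tested.

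Endothelial-like cells of the vesicle carried a narrower set. They had a median of 28968 UMIs, against 11195 in mesenchyme-like and 9529 in neural cells. In the cluster of 28 cells that gave 27 of them, 6 were mixed by their reference UMIs. The part of doublets in this class was not tested. Against neural cells, 7 of 39 tested collagens were higher, against 14.7% of all tested genes, and 9 were lower, against 14.4%. Against mesenchyme-like cells, 4 of 32 were higher (11% of all genes) and 21 lower (15.2%). The 4 were the vessel basement membrane genes Col4a1, Col4a2, Col18a1 and Col15a1.

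Col4a1 and Col4a2 together form the commonest basement membrane trimer. In the vesicle, Col4a1 stood at 1142 CPM in endothelial-like, 470 in mesenchyme-like and 14.7 in neural cells, so that it was 2.43-fold above mesenchyme-like cells (2.26 to 2.60) and 77.9-fold above neural cells (72.3 to 83.8). Col4a2 stood at 574, 240 and 12.6 CPM, 2.40-fold (2.17 to 2.65) and 45.5-fold (41.2 to 50.1) higher. Both chains thus ran in the order endothelial-like, mesenchyme-like, neural. Col18a1, whose cleaved end is endostatin, stood at 259 CPM in endothelial-like cells, 5.98-fold above mesenchyme-like (5.02 to 7.12) and 6.17-fold above neural cells (5.39 to 7.03). Col15a1, its closest relative, had 147 UMIs in 28 endothelial-like cells (163 CPM), 2 in 489 mesenchyme-like cells (0.289 CPM) and 17 in 9609 neural cells (0.108 CPM). It was 566-fold higher in endothelial-like than in mesenchyme-like cells (154 to 4716).

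The type I and III chains had few UMIs in endothelial-like cells. Col3a1 had 4 UMIs there (4.44 CPM, 214-fold below mesenchyme-like cells, 83.5 to 785), Col1a1 had 3 (63.1-fold below, 21.5 to 306) and Col1a2 had 3 (130-fold below, 44.4 to 629). The 3 Col1a1 UMIs were nonetheless called higher than in neural cells (4.85-fold, 0.984 to 14.5). Col5a2 had 51 UMIs, at 56.7 CPM, 4.12-fold below mesenchyme-like cells (3.12 to 5.55) and 1.86-fold above neural cells (1.38 to 2.45, not called). Col9a1, Col8a2 and Col13a1 had none, which put them at least 15.5-fold, 15.8-fold and 10.3-fold below mesenchyme-like cells when 3 UMIs are taken as the floor. Several neural collagens were also low. Col2a1 was 3.38-fold below neural cells (18.9 against 63.7 CPM, 2.11 to 5.80), Col11a1 3.31-fold (1.97 to 6.05), Col4a5 4.05-fold (1.96 to 10.1) and Col25a1 4.48-fold (1.75 to 16.4).

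Droplets also catch RNA released by broken cells, and the next question was which collagen UMIs of neural cells exceed that level. The matrices held called cells only, so the level was read from non-collagen genes of the source cells. The sources were mesenchyme-like, macrophage-like and, in the vesicle, endothelial-like cells. AP were not among them, so carry-over of AP collagens into BP or neurons was not tested. In septal neural cells, the median of 11 mesenchymal reference genes was 0.123% of their mesenchyme-like level, and the 20 usable genes of the vesicle gave 0.437%. Single reference genes ranged from 0.0343% to 23.3% (Prrx1) and from 0.160% to 22.7% (Fbln1). A collagen carried over with the same RNA would stand at the same percentage of its own mesenchyme-like level.

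Col3a1 was the collagen that stayed below this level in both libraries. Its 70 septal neural UMIs were 0.419 times the level of free RNA (0.327 to 0.530) and its 394 vesicle neural UMIs 0.603 times (0.545 to 0.665). Intervals of free RNA ratios cover the counted UMIs of the neural class only. They hold the free RNA level fixed and leave out the spread of the reference genes. Among vesicle neural cells, Col1a1 (0.747, 0.613 to 0.902), Col8a2 (0.665, 0.426 to 0.989), Col9a1 (1.21, 0.877 to 1.63), Col1a2 (1.63, 1.49 to 1.79) and Col13a1 (1.81, 1.31 to 2.44) were also under 2 times. The septal ratios of Col1a1 and Col1a2 were 2.73 (2.24 to 3.29) and 2.79 (2.39 to 3.24), just over the limit.

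The other collagens were above it. In septal neural cells, 24 of 25 tested collagens were at least 2 times the free RNA level, against 99.9% of all tested genes, and in vesicle neural cells 32 of 38, against 99.6%. Among genes at least 2-fold higher in mesenchyme-like cells, 16 of 17 septal collagens passed against 99.7% of genes, and 18 of 24 vesicle collagens against 97.2%. These shares were near or below the background, so that passing was the common state of a gene and not a property of collagens. Col2a1 stood at 468 times the free RNA level in the septal explants and 91.0 times in the vesicle, Col18a1 at 150 and 138, Col11a1 at 169 and 68.6, Col4a5 at 218 and 244, and Col25a1 at 2129 and 400. The septal Col25a1 ratio rested on a single UMI in mesenchyme-like cells. Col5a2 stood at 28.3 and 29.1, Col4a1 at 12.1 and 5.75, Col4a2 at 15.1 and 9.75, and Col26a1 at 24.1 and 3.30. The septal level had no endothelial-like source, so the part of vessel RNA in the septal Col4a1 and Col4a2 ratios was not tested.

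These counts depended on the reference, and the median was chosen over the sum after the data were seen. When the level in erythroid-like cells stood for free RNA, 3 of the 25 tested septal collagens (Col2a1, Col11a1 and Col18a1) and 16 of the 38 tested vesicle collagens were at least 2 times above it, and vesicle Col18a1 was not. The 26 septal erythroid-like cells held 31 collagen UMIs, and 3 UMIs among them already equalled 4.12 CPM for a gene such as Col18a1. The highest single reference gene left 8 and 15 collagens, and the summed reference genes 15 and 23. The share of all genes that passed was not counted under these other references. The smaller counts are therefore not read as a property of collagens. Against the highest gene, Col2a1, Col9a3 and Col25a1 of the septal explants and Col18a1, Col25a1 and Col4a5 of the vesicle were still at least 2 times above, but septal Col18a1 and vesicle Col2a1 were not. For septal Col25a1 this again rested on a single mesenchyme-like UMI, and its ratio to the erythroid-like level was 0.61.

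Neurons, with less collagen, were nearer to the limit. Septal Col3a1 (0.612, 0.379 to 0.936) and Col1a2 (1.85, 1.19 to 2.76) were under 2 times the free RNA level. In vesicle neurons, Col4a1 (1.12, 0.826 to 1.485) and Col4a2 (1.52, 1.05 to 2.13) joined Col3a1 (0.797, 0.583 to 1.06) and Col1a2 (1.07, 0.708 to 1.54). With the median reference, Col4a1 and Col4a2 were called in vesicle AP and not in vesicle neurons, and with the summed or the highest reference gene they were called in neither.

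**Figure D2:**
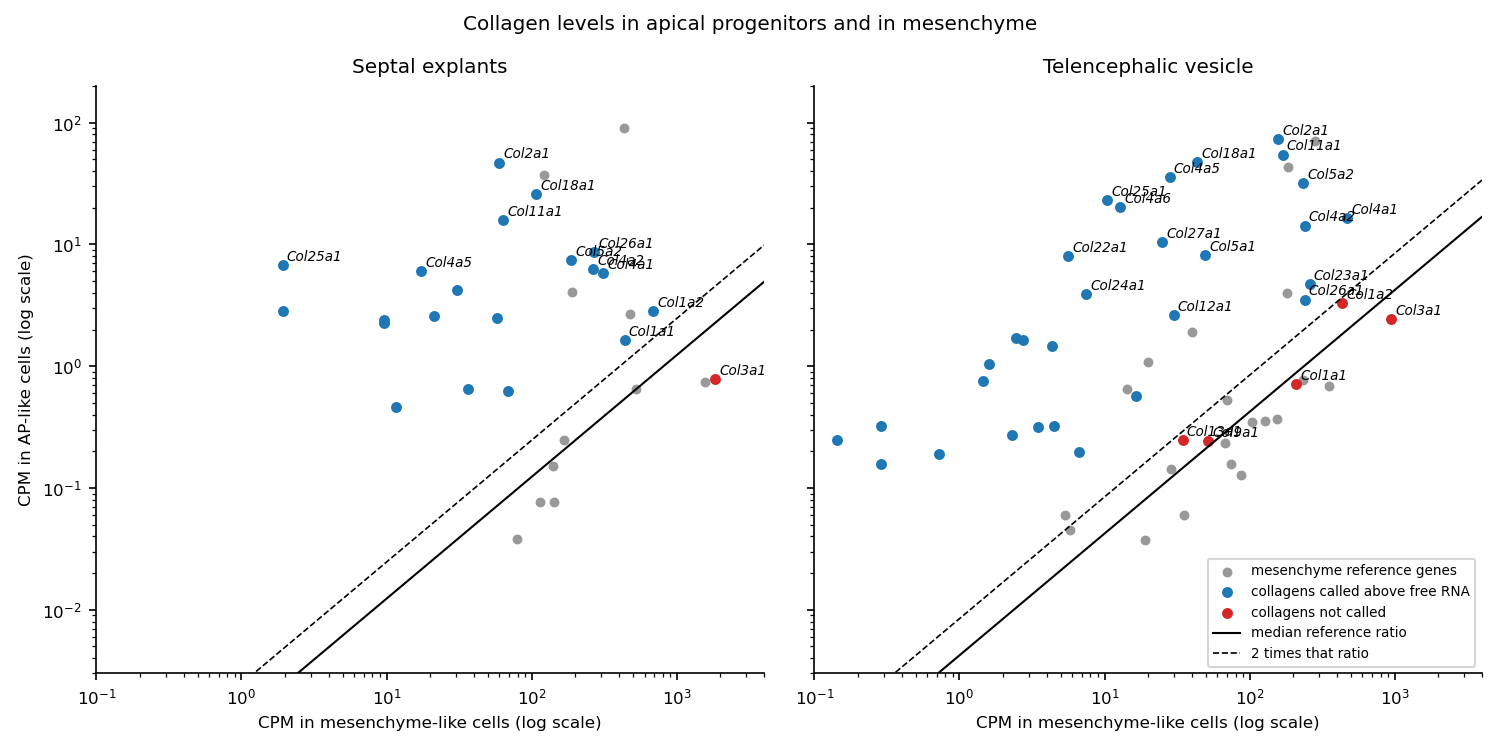
Level of each collagen in AP (vertical axis, CPM, log scale) against its level in mesenchyme-like cells (horizontal axis, CPM, log scale), 1 panel for each library, with the solid line for the median percentage of the reference genes, the broken line for 2 times that, grey points for single reference genes, blue points for collagens above the broken line and red points for tested collagens that are not. Col3a1 lies below the line in both panels, Col1a1 below it in the vesicle panel, while Col2a1, Col18a1, Col11a1 and Col25a1 lie far above it. The place of septal Col25a1 rests on a single mesenchyme-like UMI.

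At equal depth, the share of cells with a UMI gave the same division for Col2a1 and Col3a1, but not for Col18a1 of the vesicle. Each septal cell was thinned to 8000 UMIs (171 AP, 140 neurons and 5 mesenchyme-like cells were shallower and left out), and each vesicle cell to 3500 UMIs (201, 37 and 4 left out). Col2a1 had a UMI in 27.5% of septal AP (25.9 to 29.1) and 6.41% of septal neurons (5.08 to 7.97), and in 0 of 26 erythroid-like cells, with an upper 95% limit of 13.2%. In the vesicle it had one in 18.3% of AP (17.4 to 19.3), 2.33% of neurons (1.67 to 3.16) and 0.840% of erythroid-like cells (0.174 to 2.44). Before thinning, the Col2a1 share of AP was 44.3% and 47.7%, at median depths of 14332 and 11005.5 UMIs. Col18a1 had a UMI in 18.1% of thinned septal AP and 13.9% of thinned vesicle AP, but also in 8.68% of vesicle erythroid-like cells (5.98 to 12.1). The Col18a1 share of vesicle neurons, 1.57% (1.04 to 2.28), was below that. With the median reference, Col18a1 of vesicle neurons was at least 2 times the free RNA level, and with the erythroid-like level it was not. The source of the erythroid-like Col18a1 UMIs was not tested. Col3a1 had a UMI in 0.609% and 0.860% of thinned AP, against 100% and 89.5% of mesenchyme-like cells.

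Counts per cell also differed between the chains. Of 1457 septal AP with a Col2a1 UMI, 38.8% had at least 2, and of 3201 vesicle AP 55.5% did. None of the 41 septal AP with a Col3a1 UMI had a second one, and 10.5% of 219 vesicle AP did. A second UMI becomes rarer as the level of a gene falls, and these cells were not thinned. The counts therefore cannot separate neural expression from free RNA. Col25a1 reached 92 UMIs in a single vesicle AP.

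Collagens were called in both directions between AP and neurons, and the 2 sets are named the AP group and the neuron group here. Of 25 tested collagens, 12 in the septal explants were at least 2-fold higher in AP than in neurons, against 15.7% of all tested genes, and 4 were lower, against 18.1%. In the vesicle, 15 of 37 were higher, against 18.6%, and 9 lower, against 18.5%. The shares lower in AP, 16% and 24.3%, were near those of all genes and are not read as a property of collagens. The median log2 fold of the collagens was 0.98 and 0.12, beside -0.06 and 0.04 over all genes.

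Col2a1 and Col18a1 had the highest UMI counts of the AP group. Col2a1 stood at 47.0 CPM in septal AP and 9.10 in septal neurons, 5.16-fold higher (4.36 to 6.16), and at 72.8 against 9.54 CPM in the vesicle, 7.63-fold (6.42 to 9.14). Col18a1 was 5.65-fold higher in septal AP (26.1 against 4.61 CPM, 4.46 to 7.27) and 7.75-fold in vesicle AP (47.4 against 6.12 CPM, 6.25 to 9.73). Col11a1 was 2.01-fold higher in septal AP (15.9 against 7.88 CPM, 1.66 to 2.45) and stood at 54.7 and 27.7 CPM in the vesicle, just under the limit (1.97-fold, 1.78 to 2.19). Col25a1, which is cut from the cell surface, was 10.6-fold higher (6.81 against 0.641 CPM, 5.71 to 22.4) and 12.6-fold higher (23.0 against 1.82 CPM, 8.53 to 19.5). Col5a2 was 1.97-fold higher in septal AP (7.44 against 3.78 CPM, 1.49 to 2.63, not called) and 4.05-fold in vesicle AP (32.1 against 7.94 CPM, 3.34 to 4.94). Col27a1, a fibril chain of cartilage, was 2.86-fold higher (4.22 against 1.47 CPM, 1.86 to 4.61) and 9.63-fold higher (10.5 against 1.09 CPM, 5.82 to 17.2).

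All of the 4 better counted type IV chains belonged to the AP group. Col4a5 and Col4a6, which form a basement membrane network of epithelia and smooth muscle, had the larger folds: 6.68 (3.92 to 12.4) and 9.38 (3.57 to 35.0) in the septal explants, and 7.87 (6.13 to 10.3) and 14.5 (9.29 to 24.2) in the vesicle. Col4a1 and Col4a2 were 2.93-fold (2.02 to 4.39) and 3.78-fold higher (2.53 to 5.87) in septal AP, and 4.69-fold (3.53 to 6.39) and 5.94-fold higher (4.21 to 8.66) in vesicle AP. Col4a4, of the kidney-type network, was instead 2.43-fold lower in septal AP and 2.29-fold lower in vesicle AP than in neurons.

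Col9a3 had the most UMIs of the neuron group. Col9a3, a chain of the type IX collagen that coats cartilage fibrils, stood at 2.27 CPM in septal AP and 15.7 CPM in septal neurons, 6.91-fold higher in neurons (5.53 to 8.68), and at 1.65 against 6.12 CPM in the vesicle, 3.70-fold (2.84 to 4.78). Col16a1, another fibril-associated chain, was 15.1-fold higher in septal neurons (6.92 against 0.458 CPM, 9.64 to 24.6) and 5.57-fold in vesicle neurons (1.09 against 0.196 CPM, 2.74 to 10.9). Col6a4 had 28 UMIs in septal neurons and 2 in septal AP, 47.0-fold higher (11.9 to 407), and 25 and 6 UMIs in the vesicle, 40.2-fold (16.1 to 120). Col19a1 had 35 UMIs in vesicle neurons and 25 in vesicle AP, 13.5-fold higher (7.86 to 23.6), and none in the septal explants.

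Neural cells ordered by fixed progenitor and neuron genes and cut into 10 equal bins showed where each group turned. Septal Col2a1 ran from 57.1 CPM in the first bin to 31.9 in the seventh bin and 8.26 in the eighth bin, and ended at 5.79 CPM. Vesicle Col2a1 stayed between 66.5 and 78.5 CPM over the first 7 bins and stood at 40.7, 9.55 and 4.55 CPM in the last 3. Septal Col2a1 was thus low from the eighth bin, whereas the vesicle fall ran over the eighth and the ninth bin. The bins are equal cuts of each library's own neural cells, so a bin number does not mark the same stage in both. Col18a1 fell at the same bins as Col2a1 in each library, from 22.2 to 5.45 CPM in the septal explants. In the vesicle it went from 50.8 to 31.8 and then 7.44 CPM.

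Col16a1 and Col9a3 behaved differently from each other along this order. Septal Col16a1 was highest in the eighth bin, at 14.8 CPM (84 UMIs), with 7.62 in the seventh bin and 1.68 in the ninth bin. Septal Col9a3 was highest at the end, with 3.12 CPM in the first bin, 6.15 in the eighth bin and 21.1 CPM (135 UMIs) in the last bin. Vesicle Col16a1 reached 2.30 and 2.39 CPM in the eighth and ninth bins and 0.401 CPM in the last bin, and Col9a3 ended at 7.63 CPM. Vesicle Col5a2 had a level of 37.2 CPM still in the eighth bin, and 13.5 and 2.68 CPM after it.

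**Figure D3:**
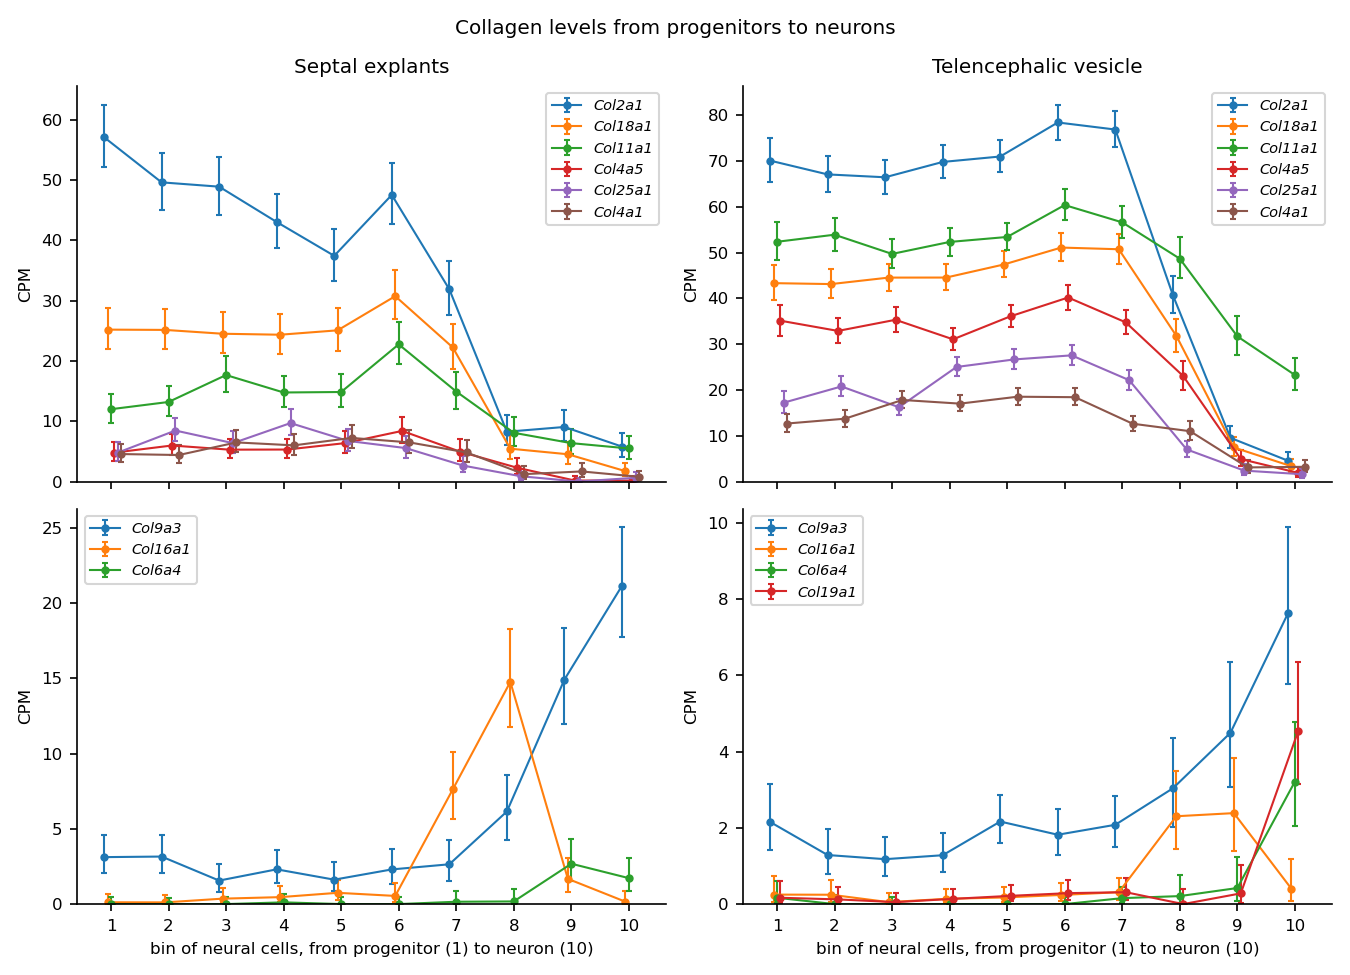
Level (vertical axes, CPM, with 95% counting intervals) of AP collagens (upper panels) and neuron collagens (lower panels) in 10 bins of neural cells ordered from progenitor to neuron (horizontal axis), for each library. Col2a1 and Col18a1 drop between the seventh and the ninth bin, septal Col16a1 has its highest level of 14.8 CPM in the eighth bin, and Col9a3 is highest in the last bin.

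BP held less collagen than AP. In septal BP, 12 of 24 tested collagens were at least 2-fold below AP, against 12.9% of all tested genes, and 3 above, against 6.95%. In vesicle BP, 14 of 36 were below, against 11.9%, and 3 above, against 8.84%. Col2a1 was 3.32-fold lower in septal BP (14.2 CPM, 2.68 to 4.16) and 3.66-fold lower in vesicle BP (19.9 CPM, 3.06 to 4.43), and Col18a1 3.23-fold (8.07 CPM, 2.43 to 4.39) and 2.51-fold lower (18.9 CPM, 2.09 to 3.05). Col16a1 was higher in BP in both: 11.1-fold in the septal explants (5.10 CPM, 6.33 to 19.8) and 6.81-fold in the vesicle (1.34 CPM from 8 UMIs, 2.66 to 15.5). Septal BP were also higher for Col9a2, at 9.38 CPM (2.15-fold, 1.58 to 2.88), and Col9a3, at 4.77 CPM (2.102-fold, 1.35 to 3.18). Col22a1, a chain of tissue junctions, stood at 13.9 CPM in vesicle BP against 8.04 in AP (1.72-fold, 1.36 to 2.16, not called) and 2.84 in neurons (4.88-fold, 3.30 to 7.34). A vesicle cluster of 516 cells between AP and neurons, set apart by a threshold chosen after its values were seen, held Col5a2 at 62.0 CPM, above the 32.1 CPM of AP.

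The neuron collagens were divided between neuron classes. Glutamatergic-like neurons (with Cajal-Retzius-like cells, an early cortical type) were compared with GABAergic-like neurons. Among 14 tested collagens of the septal explants, 4 were lower in glutamatergic-like neurons (5.91% of all genes) and 3, Col3a1, Col9a3 and Col6a4, were higher (as were 1503 of 11980 genes). The Col3a1 call rested on 19 UMIs in glutamatergic-like neurons, and septal neurons held this gene at under 2 times the free RNA level. In the vesicle, 5 of 20 were higher (9.02%) and 2 lower (4.33%). Septal Col16a1 stood at 21.1 CPM in GABAergic-like and 1.67 CPM in glutamatergic-like neurons, 12.7-fold apart (7.66 to 22.0), and 13 of the 45 septal neurons with a Col16a1 UMI had at least 3. Septal Col9a3 was 2.29-fold higher in glutamatergic-like neurons (18.5 against 8.08 CPM, 1.59 to 3.40), with 23.4 CPM (19.7 to 27.5) in Cajal-Retzius-like cells. In the vesicle, Col9a3 stood at 4.56 and 8.51 CPM, the other way round (1.86-fold, 1.19 to 2.94, not called).

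Vesicle Col19a1 and Col6a4 had 35 and 25 UMIs in glutamatergic-like neurons and 0 in GABAergic-like neurons, at least 7.58-fold and 5.41-fold higher when 3 UMIs are taken as the floor. Col6a4 of the septal explants had 27 and 1 UMIs (9.98-fold, 1.64 to 408). Vesicle Col26a1 was 9.31-fold higher in glutamatergic-like neurons (43 against 3 UMIs, 2.98 to 46.9). Col1a2 was 4.62-fold higher in vesicle GABAergic-like neurons (21 against 7 UMIs, 1.89 to 12.9). It was under 2 times the free RNA level in all vesicle neurons and at least 2 times in GABAergic-like ones alone.

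Col2a1, Col18a1 and Col11a1 had UMIs in every regional class of AP, and several collagens differed between the classes. Some counts of calls per class changed with the clustering. For septal-like AP of the septal explants, 8 of 23 tested collagens were at least 2-fold above the other AP, against 6.47% of all genes, and 2 below, against 3.01%. The vesicle gave 5 of 35 above, against 5.58%, and 1 below, against 4.38%. Septal-like AP of the septal explants were higher for Col18a1 (46.1 against 20.03 CPM, 2.30-fold, 2.06 to 2.57), Col11a1 (29.6 against 11.7 CPM, 2.53-fold, 2.20 to 2.91), Col26a1 (17.4 against 6.02 CPM, 2.89-fold, 2.39 to 3.49) and Col1a2 (8.03 against 1.27 CPM, 6.33-fold, 4.47 to 9.07). The 4 clusters behind them ranged from 1.86 to 25.6 CPM for Col1a2, so that the Col1a2 value was not shared by all. Among genes 2-fold higher in mesenchyme-like cells, 12 of 13 tested collagens were at least 2 times the free RNA level in these septal-like AP, Col1a2 among them, against 99.8% of such genes. In the vesicle, the septal-like AP were higher for Col26a1 (9.68 against 2.30 CPM, 4.21-fold, 3.50 to 5.08), Col1a2 (5.77 against 2.83 CPM, 2.04-fold, 1.65 to 2.51) and Col4a6 (38.9 against 16.4 CPM, 2.37-fold, 2.19 to 2.58). Col4a6 was higher in the septal-like AP of the septal explants too (4.34 against 1.82 CPM, 2.39-fold, 1.65 to 3.45).

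Col25a1 took opposite sides in the 2 libraries. Septal-like AP of the vesicle held it at 62.5 CPM against 15.1 CPM in the other AP (4.13-fold, 3.85 to 4.44), with 27.5 and 85.0 CPM in their 2 clusters. In the septal explants it stood at 3.20 CPM in septal-like AP and 7.91 CPM in the other AP (2.47-fold lower, 1.77 to 3.55), and was highest in AP without a regional name, at 16.6 CPM (4.96-fold, 3.98 to 6.20). These AP had 2 of 23 collagens above the other AP (0.992% of all genes) and 6 below (6.6%). The Col25a1 locus (GRCm38, chr3:130131501-130599877, plus strand) holds 5 other annotated genes on the same strand.

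Pallial-like and subpallial-like AP differed in type IV and type V chains. Subpallial-like AP of the septal explants had 2 of 23 collagens below the other AP (4.81% of all genes) and 2 above (1.77%), Col4a1 (10.6 against 4.07 CPM, 2.61-fold, 2.07 to 3.29) and Col4a2 (12.2 against 4.15 CPM, 2.94-fold, 2.35 to 3.67). Pallial-like AP there had 8 of 23 below the other AP (9.05% of all genes), with Col4a1 and Col4a2 at 1.23 CPM each, 5.41-fold (2.90 to 11.4) and 5.87-fold lower (3.15 to 12.4). In the vesicle, subpallial-like AP had 5 of 35 above (3.18%), led by Col5a2 (56.9 against 23.7 CPM, 2.40-fold, 2.26 to 2.55). Its 4 clusters ranged from 19.4 to 96.8 CPM. Pallial-like AP of the vesicle had 7 of 35 below (9.38%), among them Col5a2 (14.5 CPM, 2.61-fold lower, 2.37 to 2.88), Col25a1 (12.3 CPM, 2.15-fold, 1.93 to 2.39) and Col22a1 (4.22 CPM, 2.20-fold, 1.84 to 2.65). AP with ventral pallial markers, named in the vesicle, had 3 of 35 above (3.48%) and 7 below (7.57%), among them Col2a1 (35.6 against 74.5 CPM, 0.478 times, 0.413 to 0.550). Septal pallial-like AP were also lower for Col11a1 (7.76 against 17.3 CPM). Col8a1 had 27 UMIs in vesicle subpallial-like AP and 9 in the other AP (8.79-fold, 4.01 to 21.3).

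Hem-like AP, the signalling centre at the edge of the cortex, were low in Col4a1 and Col4a2. They had 1 of 23 collagens, Col11a2, above the other AP in the septal explants (3.96% of all genes), 4 below (4.52%) and 7 of 35 in the vesicle (5.99%). The septal calls of Col9a1 and Col16a1 among them turned to the other direction in all 6 and in 5 of 6 other clusterings. Vesicle hem-like AP held Col4a1 at 5.58 against 18.4 CPM and Col4a2 at 4.85 against 16.0 CPM, both 3.30-fold lower (2.73 to 4.02 and 2.70 to 4.08). The septal values were 2.34 against 6.13 CPM and 1.87 against 6.69 CPM, 2.62-fold (1.41 to 5.53) and 3.58-fold lower (1.79 to 8.36). Col2a1 did not follow, at 85.6 CPM in septal and 110 CPM in vesicle hem-like AP against 43.6 and 65.9 CPM in the other AP (1.96-fold, 1.75 to 2.20, and 1.68-fold, 1.60 to 1.76, neither called). Vesicle Col4a5 and Col4a6 of the hem, at 48.1 and 27.0 CPM, were above the levels of all AP, 35.5 and 20.1 CPM.

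**Figure D4:**
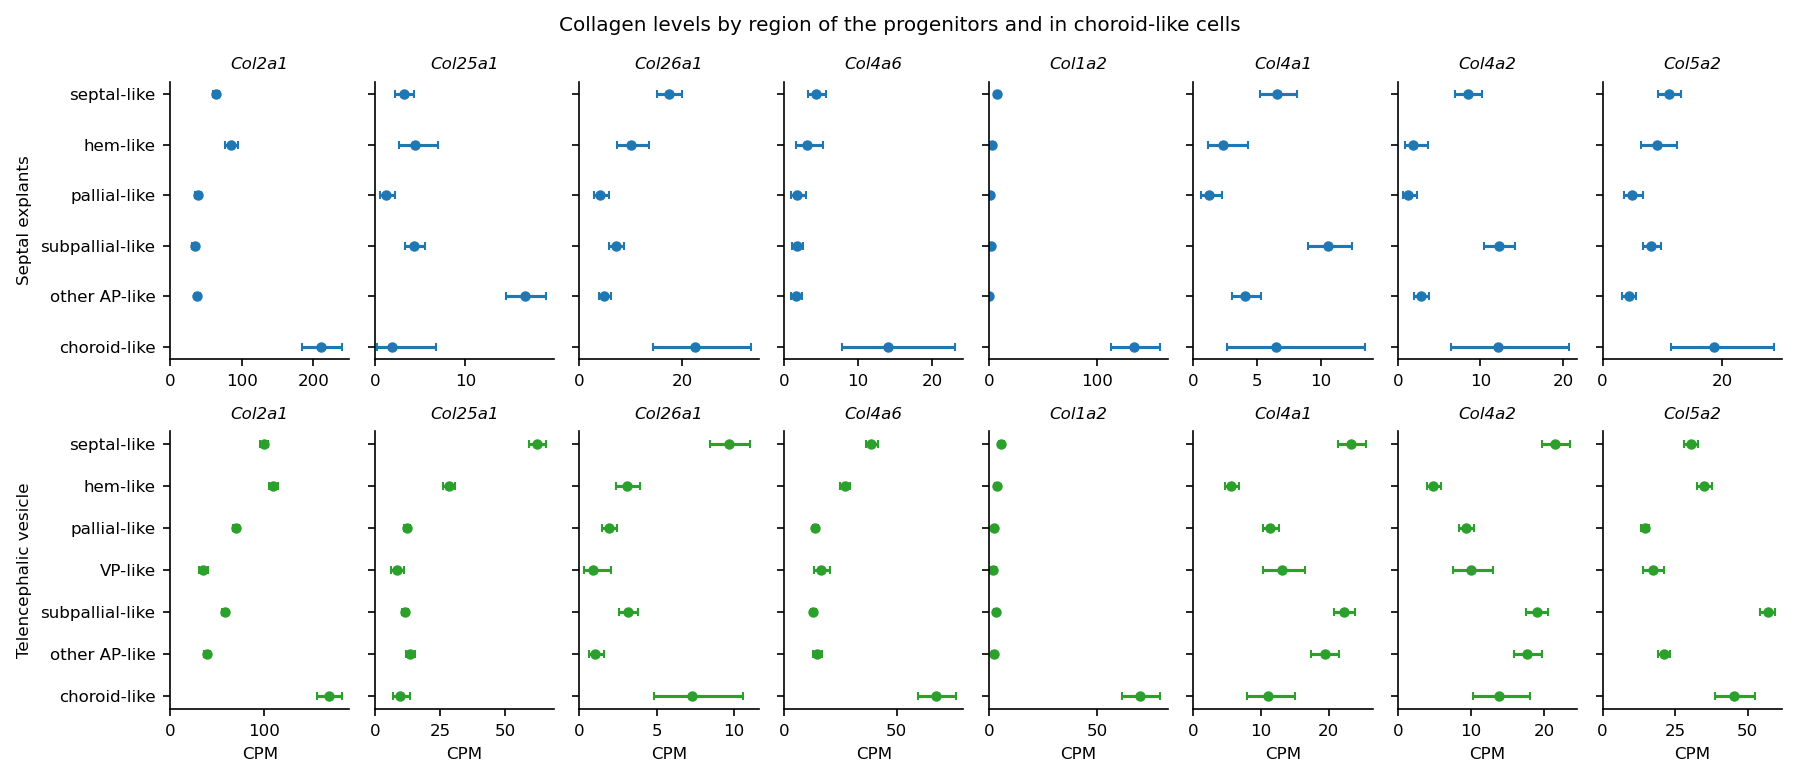
Level (horizontal axes, CPM, linear, with 95% counting intervals) of 8 collagens, 1 column each, in regional classes of AP and in choroid-like cells (vertical axis), with septal explants above and the vesicle below. Col4a1 is lowest in pallial-like AP of the septal explants at 1.23 CPM and in hem-like AP of the vesicle at 5.58 CPM, Col25a1 of the vesicle is highest in septal-like AP at 62.5 CPM, and Col1a2 is highest in choroid-like cells at 133 and 69.7 CPM.

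Col4a1 and Col4a2 were called in the same direction in subpallial-like, pallial-like and hem-like AP of the septal explants and in hem-like AP of the vesicle, whereas Col4a2 (2.74-fold lower, 1.95 to 3.95) was called without Col4a1 (1.58-fold lower, 1.18 to 2.16) in septal AP without a regional name. Each of the pairs Col4a1 and Col4a2, and Col4a5 and Col4a6, lies head to head in the genome. Their promoters (RefSeq, GRCm38.p6, from 250 bases before to 50 after the start) are shown for this reason, in the direction of each gene, with matches on either strand to CCAAT and GGGCGG, the core letters of the CCAAT box and the GC box, in capitals. The annotated starts of Col4a1 (minus strand) and Col4a2 (plus strand) on chromosome 8 are 21 bases apart and overlap, so that both windows share 78 bases, whereas those of Col4a6 (minus strand) and Col4a5 (plus strand) on chromosome X are 1343 bases apart.
Col4a1, chr8:11312777-11313076: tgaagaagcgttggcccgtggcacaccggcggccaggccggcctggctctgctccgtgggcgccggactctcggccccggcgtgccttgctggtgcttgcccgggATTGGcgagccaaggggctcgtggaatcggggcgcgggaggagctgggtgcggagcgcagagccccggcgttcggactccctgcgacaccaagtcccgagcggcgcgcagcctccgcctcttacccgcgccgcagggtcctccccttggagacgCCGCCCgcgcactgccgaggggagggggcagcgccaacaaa
Col4a2, chr8:11312555-11312854: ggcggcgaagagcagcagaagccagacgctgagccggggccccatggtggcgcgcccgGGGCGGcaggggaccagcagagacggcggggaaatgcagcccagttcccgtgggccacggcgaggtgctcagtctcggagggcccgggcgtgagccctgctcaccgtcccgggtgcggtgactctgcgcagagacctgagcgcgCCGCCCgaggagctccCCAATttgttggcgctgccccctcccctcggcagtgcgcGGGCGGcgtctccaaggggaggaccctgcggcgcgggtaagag
Col4a5, chrX:141475169-141475468: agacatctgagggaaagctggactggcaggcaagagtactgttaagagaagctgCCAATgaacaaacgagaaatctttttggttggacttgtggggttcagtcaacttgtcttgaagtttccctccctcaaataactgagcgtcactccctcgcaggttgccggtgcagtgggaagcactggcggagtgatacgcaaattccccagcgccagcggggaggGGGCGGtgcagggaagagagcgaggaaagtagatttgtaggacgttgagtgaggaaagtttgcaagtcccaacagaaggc
Col4a6, chrX:141474027-141474326: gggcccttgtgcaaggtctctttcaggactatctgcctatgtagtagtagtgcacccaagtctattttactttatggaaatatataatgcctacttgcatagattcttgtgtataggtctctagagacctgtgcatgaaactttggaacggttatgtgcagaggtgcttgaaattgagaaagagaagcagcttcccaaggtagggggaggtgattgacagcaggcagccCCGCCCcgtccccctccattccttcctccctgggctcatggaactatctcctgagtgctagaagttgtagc

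The Col4a1 and Col4a2 windows were 74% and 73.7% G and C, against 52.7% and 48.3% in Col4a5 and Col4a6 and a median of 52.7% over 32851 mouse promoters. GGGCGG occurred in all 4 windows and in 35.7% of all promoters, CCAAT in 3 of the 4 and in 37.4%, and TATAAA in none of the 4 and in 13.6%. The only GGGCGG match of Col4a1 lies in the bases shared with Col4a2 and is counted for both windows. Over 38 collagen promoters of 35 genes, 23 held GGGCGG, 13 CCAAT and 5 TATAAA. A match describes the letters of the window and is not a measured site.

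The balance inside each pair was then compared between classes. Col4a1 made up 66.5% (64.1 to 68.9) of Col4a1 and Col4a2 UMIs in endothelial-like cells of the vesicle, 66.3% (64.9 to 67.6) in mesenchyme-like cells and 53.5% (51.9 to 55.0) in AP. In the septal explants it was 54.0% (48.2 to 59.7) in mesenchyme-like cells and 48.0% (44.1 to 52.0) in AP, with overlapping intervals. Col4a5 made up 63.9% (62.7 to 65.0) of Col4a5 and Col4a6 UMIs in vesicle AP, but 56.8% (54.6 to 59.0) in septal-like AP and 56.1% (52.0 to 60.3) in choroid-like cells against 68.6% (66.1 to 71.0) in subpallial-like AP. The share of a chain in its pair thus differed between classes.

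The chains counted beside Col1a2 differed between mesenchyme-like and choroid-like cells. Col1a1 made up 38.8% (34.8 to 42.8) of Col1a1 and Col1a2 UMIs in septal and 32.7% (31.3 to 34.1) in vesicle mesenchyme-like cells, yet 1.38% (0.167 to 4.89) and 2.64% (1.07 to 5.37) in choroid-like cells. All AP stood at 36.6% (30.4 to 43.1) in the septal explants and 17.6% (14.5 to 21.1) in the vesicle. Among the regional classes, septal-like AP stood at 19.01% (12.4 to 27.1) and 15.3% (9.98 to 22.1) and subpallial-like AP at 50% (35.2 to 64.8) and 17.7% (11.6 to 25.4), while septal AP without a regional name stood at 75.9% (22 against 7 UMIs, 56.5 to 89.7). Col3a1 beside Col1a2 made up 72.6% and 68.7% of the summed UMIs in mesenchyme-like cells, 5.77% (2.15 to 12.1) and 32.1% (25.5 to 39.3) in septal-like AP, and 4.03% (1.49 to 8.56) and 4.44% (2.32 to 7.63) in choroid-like cells. The mesenchymal reference genes had a median of 0% of their mesenchyme-like level in septal and 1.65% in vesicle choroid-like cells, with Ogn highest at 88.9% in the vesicle. The part of carried-over RNA in these shares was not tested.

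**Figure D5:**
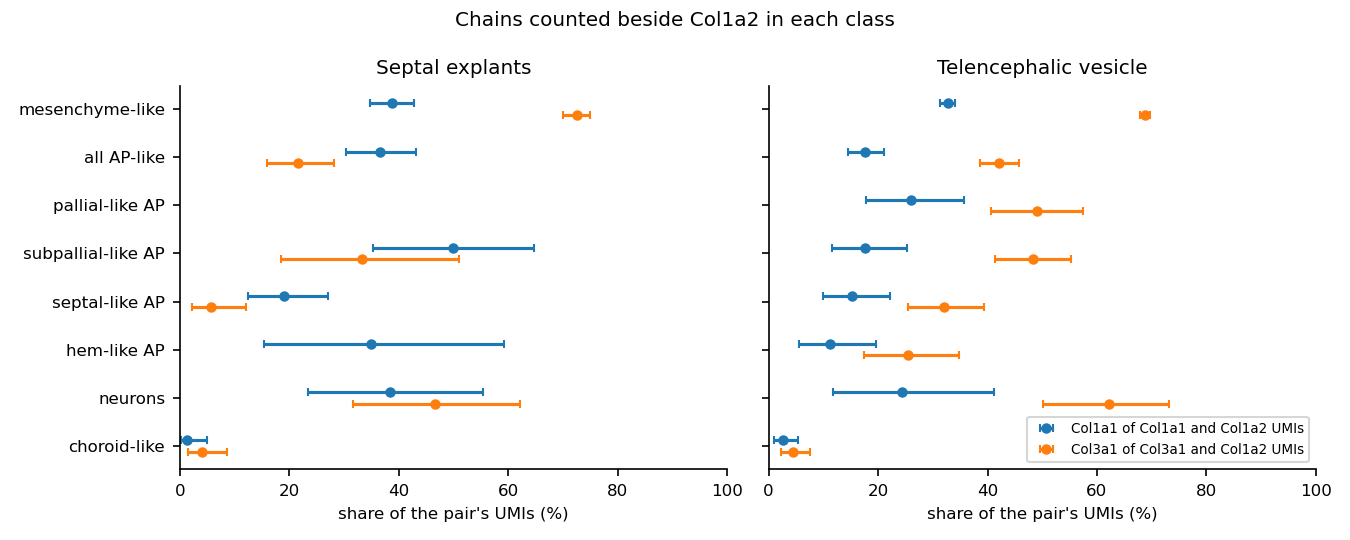
Share of Col1a1 in Col1a1 and Col1a2 UMIs and of Col3a1 in Col3a1 and Col1a2 UMIs (horizontal axis, percent, with 95% Clopper-Pearson intervals) for each cell class (vertical axis), 1 panel for each library. Col1a1 stands at 38.8% and 32.7% in mesenchyme-like cells and at 1.38% and 2.64% in choroid-like cells, and Col3a1 at 72.6% and 68.7% against 4.03% and 4.44%.

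Type IX, VI and V chains were also unevenly paired. Col9a1 made up 79.2% (57.8 to 92.9) and 95% (92.2 to 96.9) of Col9a1 and Col9a3 UMIs in mesenchyme-like cells, 22.2% (15.9 to 29.6) and 12.7% (8.89 to 17.5) in AP, and 3.16% (1.37 to 6.14) and 9.68% (4.52 to 17.6) in neurons. Of these 2 chains, mesenchyme-like cells thus held mostly Col9a1, and neurons mostly Col9a3. Col9a2, the third chain of type IX, had 229 UMIs beside 119 of Col9a3 in septal AP, and 100 beside 245 in septal neurons. Col6a1 made up 47.1% (34.8 to 59.6) and 47.9% (41.2 to 54.8) of Col6a1 and Col6a2 UMIs in mesenchyme-like cells and 15.4% (5.86 to 30.5) and 16.7% (9.64 to 26.0) in AP. Col5a1 made up 20.2% (19.1 to 21.3) of Col5a1 and Col5a2 UMIs in vesicle AP, 11.8% (10.4 to 13.2) in subpallial-like AP and 90% (68.3 to 98.8) of 20 UMIs in erythroid-like cells. In AP, Col11a2 was 2.58% (1.62 to 3.88) of septal and 1.88% of vesicle Col11a1 and Col11a2 UMIs. Col9a1 of vesicle AP was under 2 times the free RNA level. With a minimum of 1 UMI, so was Col6a1 of AP in both libraries. The part of carried-over RNA in the shares of type IX, VI and V chains was not tested.

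Choroid-like cells, which resemble the secretory epithelium of the ventricle, held 630 CPM of collagen in the septal explants and 762 CPM in the vesicle. In the septal library, 10 of 23 collagens were at least 2-fold above AP, against 14.6% of all genes, and 1 below, against 7.03%. In the vesicle, 13 of 36 were above, against 13.5%, and 3 below, against 7.8%. Col1a2 was 46.9-fold above AP in the septal explants (133 against 2.84 CPM, 37.0 to 59.4) and 21.0-fold in the vesicle (69.7 against 3.32 CPM, 17.9 to 24.6). Col2a1 was 4.49-fold (211 CPM, 3.90 to 5.14) and 2.34-fold above AP (170 CPM, 2.15 to 2.53), and Col18a1 3.93-fold (103 CPM, 3.21 to 4.78) and 2.26-fold (107 CPM, 2.04 to 2.51). Col4a5 was 5.60-fold (3.85 to 7.92) and 2.43-fold higher (2.17 to 2.73), and Col4a6 5.82-fold (3.16 to 9.96) and 3.36-fold higher (2.94 to 3.83). Col25a1 was lower, at 1.87 CPM (2 UMIs, 3.65-fold, 1.004 to 30.3) and 9.73 CPM (2.36-fold, 1.70 to 3.38). The septal cluster of 80 cells appeared under its name only in 1 of 6 other settings.

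Erythroid-like cells held 150 collagen UMIs in 400 vesicle cells. Col18a1 gave 72 of them (24.9 CPM, 19.5 to 31.4) against 42.0 CPM in neural cells, and Col5a1 gave 18 (6.23 CPM, 3.69 to 9.85).

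Genes that process collagen were counted in the same comparisons. Of 39 listed biosynthesis genes, 21 of 30 tested were higher in septal and 22 of 34 in vesicle mesenchyme-like cells than in neural cells, against 14.6% and 13.2% of all tested genes, and 1 and 3 were lower, against 11% and 13.6%. Lox, among the higher genes in both libraries, was also a reference gene used to reassign cells to this class. Serpinh1, the collagen chaperone, was 5.97-fold (2067 against 346 CPM) and 3.94-fold higher (646 against 164 CPM), and Pcolce, which helps to trim fibril precursors, 348-fold (179 against 0.513 CPM) and 158-fold higher (87.6 against 0.554 CPM). In AP, 14 of 30 and 14 of 34 were higher than in neurons, against 15.7% and 18.6% of all tested genes, and 1 each lower, against 18.1% and 18.5%. Serpinh1 was 2.75-fold (423 against 154 CPM) and 2.57-fold higher in AP (180 against 70.3 CPM), and Sparc, a collagen-binding protein, 11.4-fold (179 against 15.6 CPM) and 10.5-fold (128 against 12.2 CPM). Fkbp7, a folding enzyme, was the gene that was lower in AP in both libraries.

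Receptors were split. Of 12 listed collagen receptors, 4 of 9 tested were higher and 2 lower in septal mesenchyme-like cells, and 5 of 10 higher and 3 lower in vesicle ones, where 14.6% and 13.2% of all tested genes were higher and 11% and 13.6% lower. Ddr2, a receptor kinase for fibrillar collagen, stood at 49.95 against 0.0405 CPM and at 196 against 0.388 CPM. Ddr1, its relative of epithelia, was lower in mesenchyme-like than in neural cells, at 23.1 against 87.8 CPM and 11.4 against 76.4 CPM. Adgrg1, a receptor for type III collagen known from cortical development, was also lower there, at 15.4 against 79.6 CPM and 3.17 against 48.0 CPM. Between AP and neurons, 4 of 8 tested septal and 4 of 10 vesicle receptors were higher in AP, against 15.7% and 18.6% of all tested genes. They were Lair1, Mrc2, Itga2 and Itga1 in both libraries. In the other direction, 2 and 1 were lower in AP, against 18.1% and 18.5%. Among these, Adgrg1 was 2.06-fold (126 against 61.4 CPM) and 2.11-fold (87.8 against 41.7 CPM) higher in neurons than in AP.

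Basement membrane partners of collagen were tested last. Of 18 listed genes, 13 of 15 were higher in septal and 13 of 17 in vesicle mesenchyme-like cells, against 14.6% and 13.2% of all tested genes, and 0 and 1 lower, against 11% and 13.6%. Fbln1, among the higher genes in both libraries, was also a reference gene used to reassign cells to this class. In vesicle endothelial-like cells, 8 of 17 were higher and 2 lower than in neural cells, against 14.7% and 14.4% of all tested genes. The 8 included Hspg2 (perlecan, 260 against 11.51 CPM), Nid1 (a laminin linker, 293 against 1.04 CPM) and Lama4 (a vessel laminin, 262 against 0.757 CPM). In AP, 10 of 13 and 10 of 17 were higher than in neurons, against 15.7% and 18.6% of all tested genes, and 1 each lower, against 18.1% and 18.5%. Lama1, a laminin chain of early basement membranes, was 10.4-fold (2.004 against 0.192 CPM) and 6.14-fold higher in AP (57.2 against 9.32 CPM), and Fn1, fibronectin, 5.52-fold (32.2 against 5.83 CPM) and 5.62-fold higher (80.6 against 14.3 CPM).

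Collagen levels were also set side by side by reporter. Septal AP with at least 3 YFP UMIs (1920 cells), which come from the E11.5 embryos, were compared with 1016 AP without a YFP UMI. None of 22 tested collagens was 2-fold higher or lower, where 1.39% and 0.683% of all tested genes were, so that a count of 0 is near the background.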

How the data were processed

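Single cells of 2 tissues were measured with droplet RNA-seq, 1 library each. The deposited values are counts (UMIs per gene and barcode, raw) that the authors made with Cell Ranger (2.1.1 for septal explants, 7.1.0 for the vesicle, per the labels) on the mouse mm10 build, with YFP and tdTomato sequences added for the septal library. Whether intronic reads of the vesicle were counted is not given in the sources used here. Barcodes with a mitochondrial share over 3 median absolute deviations (383 septal, 1812 vesicle) and those marked by Scrublet as doublets (60 and 713) were left out of 5827 and 14283. Scrublet marked 4 to 6 septal cells under 4 other seeds.

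Each library was clustered on its own with scanpy 1.11.5 (2000 variable genes, 30 components, 15 neighbours, resolution 1.5), without collagen, cell cycle, reporter and sex-linked genes. Clusters were named from fixed marker lists, and cells of mesenchymal, endothelial and macrophage clusters were reassigned by their non-collagen reference UMIs, a step added after the data were seen. UMIs were summed per class and divided by the class total. Fold intervals are exact conditional binomial intervals, levels have exact Poisson and shares exact Clopper-Pearson intervals at 95%, and all cover counting error only. A gene at 0 was set to a floor of 3 UMIs. The free RNA level of a gene was the sum over source classes of its level there, times the median ratio of the reference genes. The median was chosen over the summed reference genes after seeing that Fbln1 and Prrx1 dominated the sums. Named genes were collagens with at least 50 UMIs, in full those called with most UMIs. The members, lists and markers were chosen with earlier results of these data known. Clustering resolution, seed, filters, fold limit, minimum UMIs and the free RNA reference were varied.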

Additional observations from a re-analysis of the deposited data

Results flagged for a closer look

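A few collagens were called in opposite directions in the 2 libraries, and the difference between the libraries was not tested. Col9a2 was 2.15 times the AP level in septal BP and 0.229 times in vesicle BP, where it rested on 2 UMIs. Col25a1 was 0.404 times the level of the other AP in septal-like AP of the septal explants and 4.13 times in those of the vesicle. Col9a3 was 0.455 times the level of the other AP in subpallial-like AP of the septal explants and 2.42 times in vesicle subpallial-like AP. The libraries differ in tissue, age, kit and processing, which cannot be told apart.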

How the results depend on the processing

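No paired analysis was possible because each tissue is 1 library, and no replicate could be left out. Of 294 summary values recomputed under alternatives, 61 moved. Of 1556 further values, 22 of single genes reversed and 184 of single genes kept their direction but lost their call. The 62 others that changed were counts of collagens called per regional class of AP. Of these counts, 5 moved at resolution 0.8, 6 at resolution 2.5 and 5 with another seed. The causes were not tested unless the setting itself shows them. In the septal explants, the summed AP level was 168 CPM at resolution 0.8, 169 with another seed, with doublets kept or with collagen genes kept in the clustering, and 178 with all barcodes, and that of neurons 68.2, 72.1, 73.0 and 84.8 CPM at resolution 0.8, with another seed, with doublets and with collagen genes kept. In the vesicle, BP stood at 187 CPM at resolution 2.5 and 196 with doublets, AP at 379 with doublets, mesenchyme-like cells at 3090 with doublets and 3136 with all barcodes, and neurons at 168 and 171 CPM.

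At a 4-fold limit, the septal counts became 0 lower in mesenchyme-like cells, 6 higher and 0 lower in choroid-like cells, 7 higher in AP than in neurons and 5 that differed between regions, and the vesicle counts 2 lower in endothelial-like cells, 3 higher and 0 lower in choroid-like cells, 3 lower in AP than in neurons and 4 between regions. With all barcodes, vesicle choroid-like cells had 5 higher and 1 lower. With a minimum of 50 UMIs, 2 septal and 5 vesicle collagens were lower in AP than in neurons and 7 were above free RNA in vesicle neurons. With a minimum of 1 UMI, 9 septal collagens were lower in AP than in neurons, 24 differed between regions, and 31 were above free RNA in the neurons of each library. With 5 bins, 3 septal collagens were 2-fold higher in the last bin than in the first, against 1 with 10 bins. Shares of all genes were not counted under these settings.

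Counts above free RNA changed most, and the shares of all genes under the same references were not counted. With the blood level they were 3 in septal neural cells, 3 in AP and 1 in neurons, and 16 and 15 in vesicle neural cells and AP. Against the highest reference gene they were 8, 5 and 6 in the septal explants and 15, 13 and 8 in the vesicle. The summed genes, an alternative added after seeing the data, gave 15 septal neural and 12 AP collagens. In neural cells without a reference UMI, where fewer cells remain, they were 15 in septal neural cells and 11 in septal AP and 17 in vesicle AP. Ratios under 1 were then found for septal Col25a1 (0.61, blood), for septal Col18a1 (0.80), Col11a1 (0.90), Col26a1 (0.13) and Col5a2 (0.15) and vesicle Col5a2 (0.56) and Col4a1 (0.11) against the highest gene, and for vesicle Col4a1 (0.53) against the sum.

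Septal hem-like Col9a1 turned to 1.20 at resolution 0.8, 2.69 at 2.5, 2.09 with another seed, 2.16 with doublets, 1.90 with all barcodes and 2.05 with collagen genes kept, and Col16a1 to 2.69, 5.76, 5.10, 5.39 and 5.81 in the same order from resolution 2.5. Col11a2 of septal-like AP of the septal explants turned to 0.95 at resolution 2.5 and 0.87 with another seed, and vesicle Col25a1 of pallial-like AP to 1.46 at resolution 2.5. Shares of AP with at least 2 UMIs were 6.63% and 3.04% for Col2a1 and 2.56% and 1.24% for Col18a1. Without thinning they were 44.3% and 47.7%, and 30.6% and 42.1%, for at least 1 UMI, and another thinning seed gave 12.9% for vesicle Col18a1. Depth limits all counts of a few UMIs.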
